A study of Homo sapiens with 4 samples.

Results

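Transcripts of heat shock chaperones and the TRiC chaperonin were examined in T98G cells, an established human glioblastoma line, with and without overexpression of LGP2. The genes were taken by name, as a list of 40 HSP70, HSP90, HSP40, small heat shock protein, TRiC and mitochondrial chaperones with their regulators. Of these, 39 were rows among the 20913 genes of the count table, and all 39 passed the filter on low counts, among 17863 genes tested. CRYAB, a small heat shock protein, was not analysed here. In the overexpressing cells the added gene is LGP2 (DHX58), a helicase that binds viral RNA and belongs with RIG-I and MDA5, from a construct whose column names carry a Flag tag. The cells set against them carry the vector. Each group had 2 libraries, with replicate numbers 2 and 3. Every label names T98G and lists its cell type as astroblastoma, but the growth text speaks of 293T cells, and the labels do not say whether either line is a clone or a pool. Separate cultures for the replicates are not stated either, so each p-value weighs a difference against the spread of these libraries alone, and that spread may be technical.

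Chaperones bind unfolded stretches of protein and use ATP to release them for another attempt at folding. HSP70 proteins take clients delivered by J-domain proteins of the HSP40 family, nucleotide exchange factors such as HSP110 and BAG proteins drive release, and HSP90 finishes signalling proteins such as kinases and steroid receptors. Small heat shock proteins hold aggregating clients without ATP. TRiC encloses actin and tubulin in a cytosolic chamber, and HSP60 with HSP10 forms a chamber for proteins of the mitochondrial matrix. Heat shock factor 1 (HSF1) raises many of these genes when unfolded protein accumulates, and glioma cells, like other tumour cells, are known to carry high chaperone levels.

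Library totals ran from 56033379 to 63932198 counts, TMM scaling factors from 0.951 to 1.03, and the share of mitochondrially encoded genes from 3.72% to 4.50%. Vector replicate 2 had the lowest scaling factor. DHX58 had 30509 and 34045 counts with LGP2 overexpression, against 377 and 571 counts with vector. Of 10 glioma and astroglial markers 7 were analysed, with summed levels of 5097 and 4806 CPM (counts scaled to the library total) with LGP2 and 5993 and 4907 CPM with vector, nearly all from VIM and CD44. GFAP and NES stayed under 1 CPM in each library. Of 8 markers of the HEK293 kidney line 4 were analysed, and their sums were 5.64 and 5.15 CPM with LGP2 against 6.04 and 4.69 CPM with vector. Among them EPCAM, an epithelial adhesion gene, had 2 and 0 counts with LGP2, against 102 and 11 counts with vector (unadjusted p = 0.00327, adjusted p = 0.937 by edgeR), most of it in vector replicate 2, and its part in the chaperone values was not tested. Leukocyte markers (2 of 7 analysed, mostly CD68) summed to 90.5 and 82.9 CPM with LGP2 and 110 and 95.1 CPM with vector, and fibroblast and endothelial markers (4 of 8) to 421 and 385 CPM with LGP2 and 428 and 495 CPM with vector.

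No chaperone passed the test of LGP2 overexpression against vector. By edgeR's quasi-likelihood test with Benjamini-Hochberg adjustment over all genes, 0 of the 39 were called (adjusted p from 0.998 to 0.999), where 0.0168% of all genes tested were called. At an unadjusted p under 0.05 there were 2, HSPH1 and HSP90B1, both higher, or 5.13% of members against 4.46% of all genes (3% higher and 1.46% lower). DESeq2, which called 0.123% of all genes, and limma-voom also called 0 members. So did edgeR with the replicate number as a block, which called 0.0448% of all genes. At an unadjusted p under 0.05 there were 4 members by DESeq2, 3 by limma-voom and 5 by edgeR with the block. Of all 17863 genes there were 834, 919 and 1132 in turn. The smallest adjusted p of a member by edgeR with the block was 0.431. The 95% interval stayed inside a 2-fold change, up or down, for 38 of the 39, and for 61.1% of all genes. The exception was HSPA4L, the scarcest member.

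Small positive differences outnumbered negative ones. Of the 39 log2 fold changes 27 lay above 0 (69.2%, against 48.7% of all genes tested), and their median was 0.10, against -0.008 over all genes. Both LGP2 libraries lay above both vector libraries in CPM for 20 members (51.3%, against a background of 19%), and below both for 5 (12.8%, against 13.3%), so that 64.1% were apart, against 32.3% of all genes. With TMM-scaled totals, which raise vector replicate 2 against the other libraries, 14 members were higher (35.9%, against 16.7%) and 5 lower (12.8%, against 16.5%), where 33.2% of all genes were apart. Together the 39 genes took 1.78% and 1.95% of all counts with LGP2 and 1.64% and 1.59% with vector, groups that did not overlap. With 2 libraries a group the exact permutation p cannot go below 0.333, and that was the two-sided p here. In bulk RNA, fewer cells with a transcript and less of it per cell cannot be told apart. The median rested on single libraries, at 0.0088 without vector replicate 3 and 0.20 without vector replicate 2. It was 0.04 over the 20 members that share no exon with another gene on either strand. Without vector replicate 3, edgeR called 3 members (2.31% of all genes in that fit), with HSPH1 at a log2 fold change of 0.64 (adjusted p = 0.0171), HSP90B1 at 0.64 (adjusted p = 0.0192) and HSF1 at -0.52 (adjusted p = 0.0477). That fit holds 1 vector library, which is assumed to vary like the LGP2 pair.

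**Figure D1:**
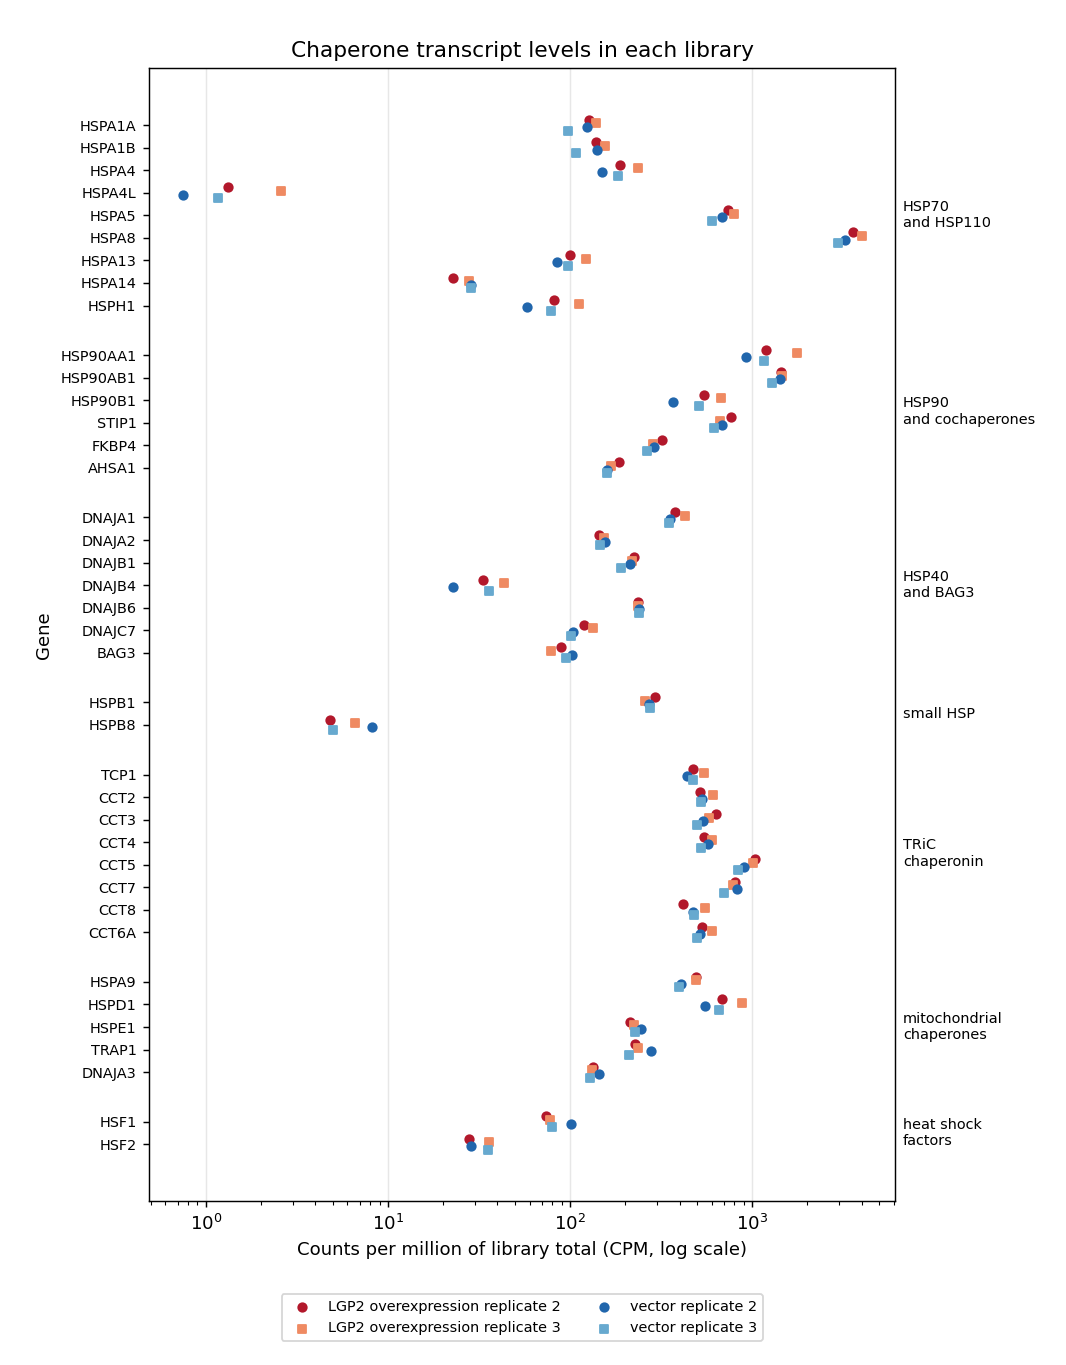
CPM of library totals (log axis) of the 39 genes in each library, LGP2 overexpression in reds and vector in blues, circles for replicate 2 and squares for replicate 3. HSPA8 lies furthest right, at 3602 and 3994 CPM with LGP2 against 3239 and 2957 CPM with vector, while HSPA4L stays between 0.751 and 2.58 CPM.

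GC content and length of the transcripts moved with the fold changes. Across the 39 genes the log2 fold change correlated with the GC content of the longest coding transcript at a Pearson r of -0.51 (Spearman -0.48) and with log2 length at r = 0.66, or 0.51 without HSPA4L. These are descriptions over genes that share 4 libraries, and genes are not independent replicates. Without LGP2 replicate 3 the r with GC was -0.25, and without vector replicate 2 it was -0.13. Over all 17479 tested genes with annotation the Pearson r with GC was -0.18 and with log2 length 0.10. The 19 members with GC content under 46.03% had a median log2 fold change of 0.19 with 15 above 0, and the other 20 a median of 0.06 with 12 above 0. In the whole table, genes under that GC content had a median of 0.14, with 4659 of 6820 above 0. The others had a median of -0.07, with 3869 of 10659 above 0. With offsets for GC and length in each library the members' median was 0.10, so it was about as large, while single genes moved in both directions, and the members' r was -0.02 with GC and 0.35 with log2 length. HSPH1 went to 0.23, HSPA4 to 0.13, HSPA13 to -0.06, DNAJA1 to 0.015 and DNAJB4 to 0.07, all lower than without offsets. Higher than without offsets were HSPA1A at 0.32, HSPA1B at 0.30, DNAJB1 at 0.185 and HSPB1 at 0.135.

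**Figure D2:**
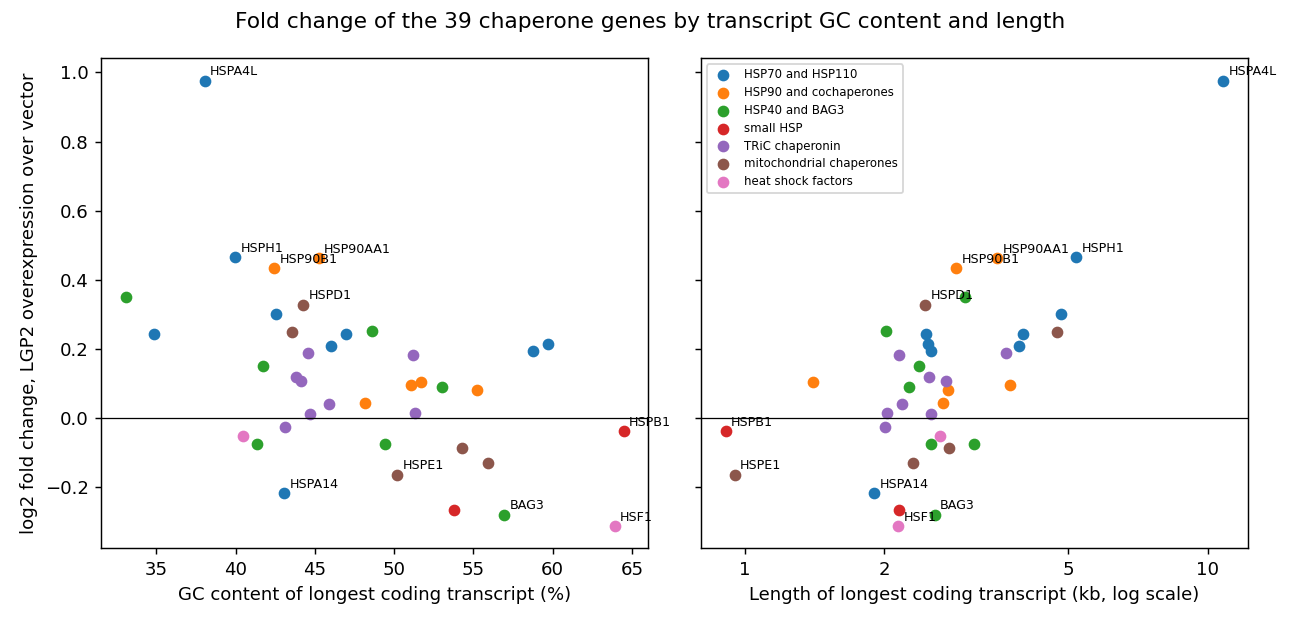
Log2 fold change (LGP2 overexpression over vector) of each chaperone gene against transcript GC content in percent (left) and transcript length in kb on a log axis (right), coloured by class. HSPA4L, HSPH1, HSP90AA1 and HSP90B1, all under 46.03% GC, sit highest, at 0.98, 0.47, 0.46 and 0.43, and HSF1, at 63.9% GC, lowest at -0.31.

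The transcription factors that drive chaperone genes did not pass. HSF1, the main activator of the heat shock response, was at 73.9 and 77.7 CPM with LGP2, against 102 and 79.9 CPM with vector. Both LGP2 libraries lay below both vector libraries, but LGP2 replicate 3 and vector replicate 3 were close, and vector replicate 2 stood higher than the other 3. Its log2 fold change came to -0.31 (SE 0.17, 95% interval -0.68 to 0.05, unadjusted p = 0.0874), and it was -0.07 without vector replicate 2 and -0.18 with GC and length offsets. HSF2, a related factor active in development, was at 27.8 and 36.0 CPM with LGP2 and 28.7 and 35.6 CPM with vector. Its replicates differed more than its groups, and the log2 fold change was -0.05 (SE 0.19).

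Heat shock elements, the DNA sites bound by HSF1 trimers, are inverted repeats of GAA. The letters GAANNTTC or TTCNNGAA, which each read the same on both strands, were searched in windows from 250 bases before to 50 after RefSeq gene starts (GRCh38.p14). Of 35 members with a window 18 held at least 1 match (51.4%), against 16.2% of all 27305 genes with one. A gene counted here if any of its windows matched. Counted by window, 19 of 50 member windows (38.0%) held a match, against 13.5% of all 35116 windows. A run of 3 repeats (GAANNTTC followed by NNGAA, or TTCNNGAA followed by NNTTC, which is its reverse complement; both contain the shorter motifs) was found in 6 members (17.1%), namely HSPA8, HSP90AA1, HSP90AB1, DNAJA1, DNAJB6 and HSPD1, against 0.61% of all genes. A match is a run of letters, not a site shown to be bound. The stretches below show the letters in some of the 18 members with a match. DNAJA1 and DNAJB6, which hold 3 repeats, are not shown, nor are further matches in the windows of HSP90AB1, HSPA8 and DNAJB1. The stretches run 5′ to 3′ on the gene's strand, with matched letters in capitals, and DNAJB1 and HSPB1 hold the shorter motif. All 30 bases of the HSPA8, HSP90AA1 and HSPD1 stretches lie in annotated exons, for HSPD1 in exons of both HSPD1 and HSPE1. The HSPE1 window, which held no match, does not cover the HSPD1 stretch. The HSP90AB1 stretch spans chr6:44247823-44247852 on the plus strand, the HSPA8 stretch chr11:123062170-123062199 on the minus strand, the HSP90AA1 stretch chr14:102087104-102087133 on the minus strand, the HSPD1 stretch chr2:197500061-197500090 on the minus strand, before the downstream of 2 RefSeq starts, the DNAJB1 stretch chr19:14518456-14518485 on the minus strand and the HSPB1 stretch chr7:76302480-76302509 on the plus strand.
HSP90AB1: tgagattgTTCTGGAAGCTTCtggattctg
HSPA8: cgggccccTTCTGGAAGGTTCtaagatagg
HSP90AA1: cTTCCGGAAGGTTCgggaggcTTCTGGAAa
HSPD1: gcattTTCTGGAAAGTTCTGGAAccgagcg
DNAJB1: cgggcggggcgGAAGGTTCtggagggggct
HSPB1: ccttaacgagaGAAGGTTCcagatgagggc

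Of the 18 members with a match 15 had log2 fold changes above 0 (median 0.13), all but DNAJB6, HSPB1 and HSPB8, and of the 17 members with a window and no match 10 did (median 0.10). The difference between these counts was not tested. Among the 6 genes with 3 repeats, log2 fold changes were 0.46 for HSP90AA1, 0.33 for HSPD1, 0.24 for HSPA8, 0.15 for DNAJA1, 0.04 for HSP90AB1 and -0.07 for DNAJB6. HSPH1 and HSP90B1, the members with the smallest p, had no match in their windows.

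Among HSP70 and HSP110 genes, 8 of 9 log2 fold changes were positive and the median was 0.24 (0.23 with GC and length offsets, 0.13 without vector replicate 3). The 9 genes took 0.5004% and 0.559% of counts with LGP2, against 0.451% and 0.416% with vector. HSPA8, the constitutive cytosolic HSP70, was at 3602 and 3994 CPM with LGP2, against 3239 and 2957 CPM with vector. All LGP2 values were above all vector values, but the log2 fold change of 0.24 (SE 0.20, 95% interval -0.20 to 0.69) did not pass. HSPH1, an HSP110 that exchanges nucleotide on HSP70, was at 82.2 and 111 CPM with LGP2, against 57.9 and 78.3 CPM with vector. Its groups did not overlap, yet replicate 3 exceeded replicate 2 in both, and LGP2 replicate 2 and vector replicate 3 were close. Its log2 fold change came to 0.47 (SE 0.18, 95% interval 0.07 to 0.86, unadjusted p = 0.0245, adjusted p = 0.998 by edgeR), or 1.38-fold, and it was 0.25 without LGP2 replicate 3. HSPH1 lies at chr13:31134974-31162388 on the minus strand (GENCODE 29, GRCh38).

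HSPA4L, a testis-enriched HSP110, was at 1.32 and 2.58 CPM with LGP2 and 0.751 and 1.17 CPM with vector. It had the highest log2 fold change of the list, 0.98 (SE 0.50, 95% interval -0.13 to 2.08), at the lowest level, and ran from 0.44 without LGP2 replicate 3 to 1.36 without LGP2 replicate 2. HSPA4, the ubiquitous HSP110, was at 188 and 237 CPM with LGP2 and 150 and 184 CPM with vector, a log2 fold change of 0.30 (SE 0.16). The ratio of HSPH1 to HSPA4 in counts per kb was 0.408 and 0.438 with LGP2 and 0.358 and 0.396 with vector. For HSPA4, LGP2 replicate 2 and vector replicate 3 were close, so the groups barely separated. HSPA5 (BiP), the HSP70 of the endoplasmic reticulum, was at 741 and 794 CPM with LGP2 and 680 and 603 CPM with vector, a log2 fold change of 0.21 (SE 0.17). HSPA13, a microsomal HSP70 relative, had 0.24 (SE 0.15), and HSPA14, a ribosome-associated HSP70, was the exception at -0.22 (SE 0.19).

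The stress-inducible HSP70 is encoded by HSPA1A and HSPA1B, neighbouring genes with near-identical coding sequences, so the split of reads between them is uncertain. HSPA1A was at 127 and 140 CPM with LGP2, against 124 and 97.8 CPM with vector. HSPA1B was at 140 and 156 CPM with LGP2, against 141 and 109 CPM with vector. In both genes vector replicate 2 was level with LGP2 replicate 2, so that HSPA1B overlapped, and vector replicate 3 was the low library. HSPA1A had a log2 fold change of 0.21 (SE 0.17) and HSPA1B 0.19 (SE 0.17), and without vector replicate 3 they were 0.009 and -0.03. The count ratio of HSPA1A to HSPA1B was 0.910 and 0.895 with LGP2 and 0.881 and 0.900 with vector. As the split of reads is uncertain, this ratio cannot show whether the copies kept step. The stretches around the HSF1 motif in the 2 promoters are shown to compare their sequences. The 60 bases at chr6:31815412-31815471 (HSPA1A) and chr6:31827608-31827667 (HSPA1B), both on the plus strand, differ at 2 positions, neither in the motif in capitals.
HSPA1A: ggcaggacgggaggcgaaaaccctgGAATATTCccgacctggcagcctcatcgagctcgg
HSPA1B: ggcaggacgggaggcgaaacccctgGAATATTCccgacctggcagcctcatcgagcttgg

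All 6 HSP90 genes and cochaperones had positive log2 fold changes, and the median was 0.10 (0.02 without LGP2 replicate 2 or without vector replicate 3, 0.20 with GC and length offsets). They took 0.445% and 0.502% of counts with LGP2, against 0.385% and 0.401% with vector. HSP90B1 (GRP94), the HSP90 of the endoplasmic reticulum, was at 546 and 676 CPM with LGP2, against 366 and 514 CPM with vector. The groups did not overlap, but LGP2 replicate 2 was close to vector replicate 3, and vector replicate 2 was the low library. Its log2 fold change came to 0.43 (SE 0.19, 95% interval 0.02 to 0.85, unadjusted p = 0.0417, adjusted p = 0.998 by edgeR), or 1.35-fold. It was 0.25 without vector replicate 2 and 0.31 with GC and length offsets. HSP90B1 lies at chr12:103930107-103953645 on the plus strand (GENCODE 29, GRCh38). It shares exon sequence with a microRNA on that strand and with C12orf73 and TTC41P on the opposite strand. HSP90AA1, the inducible cytosolic HSP90, was at 1192 and 1765 CPM with LGP2, against 921 and 1159 CPM with vector. LGP2 replicate 2 and vector replicate 3 nearly coincided, and the log2 fold change of 0.46 (SE 0.21, 95% interval -0.01 to 0.93) ran from 0.17 without LGP2 replicate 3 to 0.70 without LGP2 replicate 2.

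HSP90AB1, the constitutive cytosolic HSP90, was at 1443 and 1456 CPM with LGP2, against 1424 and 1294 CPM with vector, a log2 fold change of 0.04 (SE 0.18, 95% interval -0.36 to 0.44). The ratio of HSP90AA1 to HSP90AB1 in counts per kb was 0.629 and 0.924 with LGP2 and 0.493 and 0.682 with vector, with overlapping groups (exact permutation p = 0.667, two-sided, 0.833 adjusted over the 5 ratios computed). Between the endoplasmic reticulum chaperones, HSPA5 over HSP90B1 was 0.994 and 0.859 with LGP2 and 1.36 and 0.858 with vector, where vector replicate 2 alone stood apart (exact permutation p = 1.0, two-sided). Log2 fold changes of the cochaperones were smaller, at 0.08 (SE 0.17) for STIP1 (HOP), which passes clients from HSP70 to HSP90, 0.09 (SE 0.16) for the immunophilin FKBP4 and 0.10 (SE 0.14) for AHSA1, an activator of the HSP90 ATPase. STIP1 and FKBP4 overlapped between groups, and both turned slightly negative without LGP2 replicate 2 or without vector replicate 3.

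**Figure D3:**
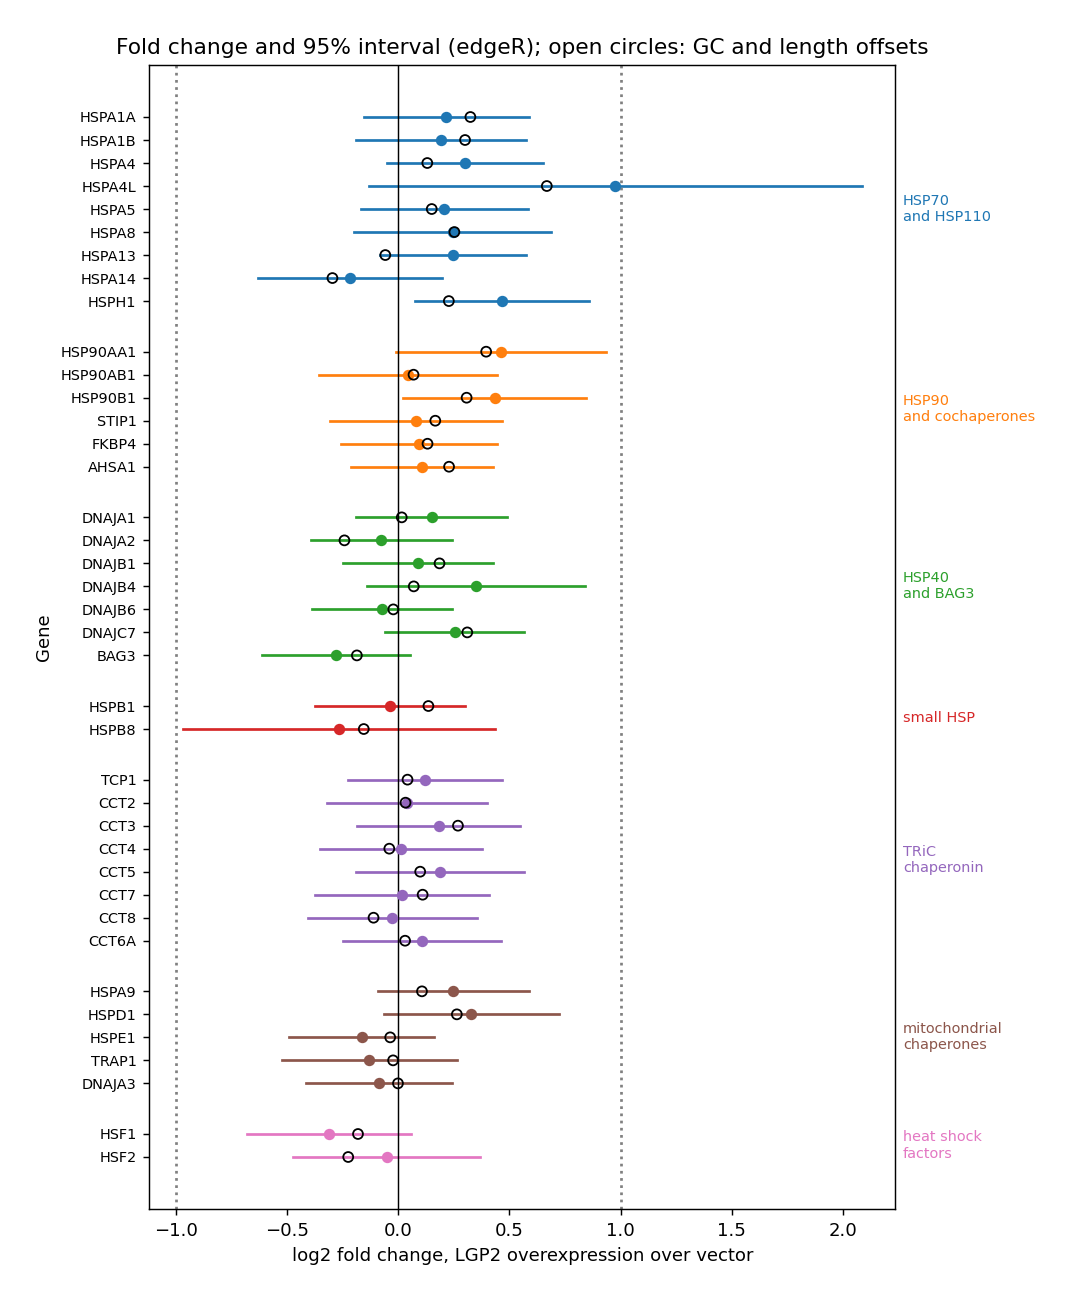
Log2 fold change (LGP2 overexpression over vector) of each gene by edgeR with its 95% interval (filled points and lines), coloured by class, and the estimate with GC and length offsets (open circles). Dotted lines mark a 2-fold change. All intervals other than those of HSPH1 and HSP90B1 include 0, and only that of HSPA4L reaches past a 2-fold change.

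The 6 HSP40 genes and BAG3 were divided, 4 above and 3 below 0, with a median of 0.09 that was -0.04 without vector replicate 3 and 0.02 with GC and length offsets. DNAJA1, the most abundant J-domain member here, was at 378 and 429 CPM with LGP2, against 354 and 349 CPM with vector, a log2 fold change of 0.15 (SE 0.15). DNAJC7, which binds both HSP70 and HSP90, was at 120 and 134 CPM with LGP2, against 104 and 102 CPM with vector, with separate groups and a log2 fold change of 0.25 (SE 0.14, 95% interval -0.06 to 0.56). BAG3, which couples HSP70 to small heat shock proteins in selective autophagy, went the other way. It was at 89.8 and 78.6 CPM with LGP2, against 103 and 95.03 CPM with vector, both LGP2 libraries being lower, with a log2 fold change of -0.28 (SE 0.15, 95% interval -0.61 to 0.05, unadjusted p = 0.0897). Among the rest, DNAJB1, the inducible partner of HSP70, was at 225 and 219 CPM with LGP2, against 213 and 190 CPM with vector (log2 fold change 0.09, SE 0.15). DNAJB4, whose groups overlapped, was at 0.35 (SE 0.22), DNAJA2 at -0.08 (SE 0.14) and DNAJB6, which suppresses polyglutamine aggregation, at -0.07 (SE 0.14). DNAJB6 varied little, with 236 CPM in both LGP2 libraries and 241 CPM in both vector libraries.

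Neither small heat shock protein analysed here separated the groups. HSPB1 (HSP27) was at 292 and 257 CPM with LGP2, against 272 and 274 CPM with vector. The vector values lay between those with LGP2, for a log2 fold change of -0.04 (SE 0.15, 95% interval -0.37 to 0.30), turning to 0.135 with GC and length offsets. HSPB8, the partner of BAG3, was at 4.84 and 6.62 CPM with LGP2, against 8.23 and 4.98 CPM with vector. The vector range held LGP2 replicate 3 and nearly reached LGP2 replicate 2, and the log2 fold change was -0.27 (SE 0.32), or 0.20 without vector replicate 2.

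The TRiC chaperonin is a double ring of 8 related subunits, and none of their transcripts passed the test. Log2 fold changes ran from -0.03 to 0.19 over the 8 genes, with 7 above 0, a median of 0.07 (0.006 without vector replicate 3) and 95% intervals within a 2-fold change for all 8. CCT5 was at 1036 and 1007 CPM with LGP2, against 900 and 834 CPM with vector, and CCT3 at 634 and 578 CPM with LGP2, against 537 and 497 CPM with vector. Both had separate groups, and the log2 fold changes were 0.19 for CCT5 and 0.18 for CCT3 (SE 0.17 each). TCP1 (CCT1) and CCT6A also had separate groups, at 0.12 (SE 0.16) and 0.11 (SE 0.16), but CCT3 and CCT6A overlapped on TMM-scaled totals. CCT2, CCT4, CCT7 and CCT8 overlapped, at 0.04, 0.01, 0.02 and -0.03, and each of these 4 changed sign when some single library was left out.

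Per kb of the longest coding transcript, CCT7 was the highest subunit in each library, at 397 and 389 CPM per kb with LGP2 and 405 and 346 CPM per kb with vector. This order rests on annotated lengths, 2031 bases for CCT7 and 3675 for CCT5, and CCT5 had the higher CPM in each library. Which transcripts the cells express was not tested. The lowest was TCP1 in 3 libraries and CCT6A in vector replicate 3. The highest exceeded the lowest 2.08-fold and 1.78-fold with LGP2, and 2.30-fold and 1.88-fold with vector. Subunits are present once per ring, and the coefficient of variation of their levels per kb was 27.7% and 19.99% with LGP2 and 28.2% and 21.7% with vector. Libraries of 1 group differed more in this spread than the groups did.

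The 5 mitochondrial chaperones split by gene. HSPD1 (HSP60) was at 684 and 885 CPM with LGP2, against 554 and 657 CPM with vector, with a log2 fold change of 0.33 (SE 0.18, 95% interval -0.07 to 0.72). LGP2 replicate 2 lay just above vector replicate 3. HSPA9 (mortalin), the matrix HSP70, was at 494 and 495 CPM with LGP2, against 408 and 398 CPM with vector. Its replicates nearly coincided within each group, for a log2 fold change of 0.25 (SE 0.15, 95% interval -0.09 to 0.59), or 0.11 with GC and length offsets. HSPE1 (HSP10), the lid of HSP60, was at 214 and 224 CPM with LGP2, against 245 and 228 CPM with vector, a log2 fold change of -0.16 (SE 0.15). TRAP1, the mitochondrial HSP90, had -0.13 (SE 0.18) and DNAJA3, a matrix J-domain protein, -0.09 (SE 0.15). Both overlapped between groups.

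HSPD1 and HSPE1 are transcribed head to head on chromosome 2, with RefSeq starts 105 bases apart at the nearest, yet their values went opposite ways. In counts per kb the ratio of HSPD1 to HSPE1 was 1.24 and 1.53 with LGP2, against 0.875 and 1.11 with vector. The LGP2 ratios lay above the vector ratios (exact permutation p = 0.333, two-sided, the smallest the design allows, 0.833 adjusted over the 5 ratios), and replicate 3 was above replicate 2 in both groups. The pair was singled out after its values were seen. HSPD1 has 2455 bases at 44.2% GC and HSPE1 950 bases at 50.2%, and with GC and length offsets the log2 fold changes were 0.26 and -0.04. Their exons overlap on opposite strands and HSPE1 shares exons with the read-through HSPE1-MOB4, so without knowledge of strand some reads cannot be assigned.

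**Figure D4:**
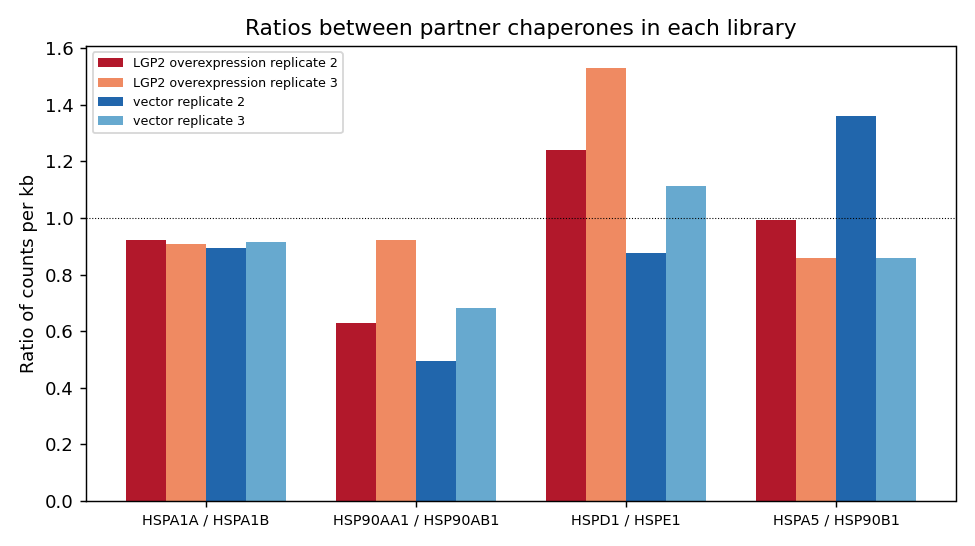
Ratio of counts per kb between partner chaperones in each library (bars start at 0; dotted line, equal levels; no error bars, as each bar is 1 library). HSPA1A over HSPA1B stays between 0.894 and 0.924, HSPD1 over HSPE1 is 1.24 and 1.53 with LGP2 against 0.875 and 1.11 with vector, and HSPA5 over HSP90B1 is 0.994 and 0.859 with LGP2 against 1.36 and 0.858 with vector.

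Levels per kb of transcript set the order of abundance. HSPA8 led with a mean over the 4 libraries of 1400 CPM per kb, followed by HSP90AB1 at 525, CCT7 at 384, HSP90AA1 at 359, HSPB1 at 301 and HSPD1 at 283 CPM per kb. HSPA8 exceeded the others in each library. HSP90AA1 ran from 262 to 503 CPM per kb over the libraries, a range that reached HSP90AB1 and covered CCT7 and HSPB1. Per kb, HSP90AA1 lay below HSP90AB1 within each library, at ratios from 0.493 to 0.924. This order rests on annotated lengths, 3510 bases for HSP90AA1 and 2674 for HSP90AB1. Without division by length the count ratio was 0.826 and 1.21 with LGP2 and 0.647 and 0.895 with vector. In LGP2 replicate 3, then, HSP90AA1 had the higher count. The order of HSP90AA1 against CCT7 and against HSPB1 changed between libraries. The inducible genes HSPA1A and HSPA1B were at 49.2 and 54.1 CPM per kb, and HSF1 at 38.9. At the low end were HSF2 at 12.1, DNAJB4 at 11.3, HSPB8 at 2.86 and HSPA4L at 0.135 CPM per kb. Pseudogene copies that carry the symbol or stem of their parent took few reads. The table holds 23 copies so named, from 13 of the genes. Summed by gene, they reached at most 1.10% of their parent's counts, for HSPD1. Copies under other names were not searched.

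Other genes of the folding network did not pass either. Of 103 listed genes 93 were tested, with 48 above and 45 below 0, a median log2 fold change of 0.01 and 0 called by edgeR. At an unadjusted p under 0.05, 4 were higher and 1 lower (5.38%, against 4.46% of all genes). CHORDC1, an HSP90 cochaperone induced by heat, was at 65.7 and 101 CPM with LGP2, against 57.2 and 59.0 CPM with vector, a log2 fold change of 0.47 (SE 0.19, 0.15 without LGP2 replicate 3). The other 3 higher genes were J-domain proteins. DNAJC10, a disulfide reductase of the endoplasmic reticulum, was at 49.3 and 67.8 CPM with LGP2 and 32.8 and 45.7 CPM with vector (log2 fold change 0.53, SE 0.19). DNAJC13, an endosomal protein, had 0.45 (SE 0.18) and DNAJB14, a membrane protein of the endoplasmic reticulum, 0.63 (SE 0.26). Their transcripts have GC contents from 33.4% to 41.5%, and with GC and length offsets they were at 0.13 for CHORDC1, 0.25 for DNAJC10, 0.23 for DNAJC13 and 0.28 for DNAJB14. HSCB, a mitochondrial cochaperone of iron-sulfur cluster assembly, was the lower gene, at 19.2 and 19.1 CPM with LGP2, against 22.4 and 27.7 CPM with vector (log2 fold change -0.43, SE 0.19).

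By role, the 31 other J-domain proteins had 20 above 0 and a median of 0.06, and the 13 tested HSP70 relatives and exchange factors 8 above 0 and a median of 0.05. HSPA6, an HSP70 silent outside strong stress, stayed low, at 3.05 and 2.34 CPM with LGP2 and 1.96 and 1.24 CPM with vector (log2 fold change 0.70, SE 0.41). The 15 HSP90 cochaperones had 6 above 0 and a median of -0.01, led in level by PTGES3 (p23) at 478 and 537 CPM with LGP2 and 485 and 505 CPM with vector. The 10 tested prefoldin subunits and TRiC assistants were even at 5 and 5, and the 15 mitochondrial folding and protease genes had 6 above 0 and a median of -0.04. Among 8 tested further heat shock factors and stress-inducible genes, which include the collagen chaperone SERPINH1 (HSP47, log2 fold change -0.06, SE 0.15), 3 lay above 0. HSPB11, listed by its symbol, was the 1 tested gene from the list of other small heat shock genes, at a log2 fold change of -0.12 (SE 0.15).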

How the data were processed

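RNA-seq was done on 2 LGP2 overexpression and 2 vector libraries of T98G cells (TRIzol extraction and a SMARTER kit for mRNA, as the protocols in the labels give it). The authors deposited raw counts per gene symbol, 1 column per library. The submitters' processing notes name the build mm10, although the symbols are human. No name for the aligner, counter, annotation or strand setting is given in the sources used here. Because of this, reads of overlapping genes are uncertain. In GENCODE 29 (GRCh38), which also gave coordinates, transcript lengths and GC contents, 9 members share exon sequence with another gene on their strand and 15 on the opposite strand.

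Counts were tested with edgeR 4.0.16 in R 4.3.3 (quasi-likelihood, two-sided, TMM, filterByExpr, no covariate) over 17863 genes, which held 99.98% of counts. Genes were called at a Benjamini-Hochberg adjusted p under 0.05, and standard errors (SE) come from the F statistic. Printed CPM are counts scaled to library totals. Alternatives included the replicate number as a block, DESeq2 1.42.0 and limma-voom 3.58.1.

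Members and lists were chosen with earlier results of these data known. Values are given for each library for the most abundant and the 2 lowest-p members of each class, those with unadjusted p under 0.05, HSPA1A, HSPA1B and HSF1; other members and genes named were added after their values were seen. In data simulated from these libraries, on 17201 to 17240 genes, the fit recovered 12.4% of genes changed 1.5-fold and 52% of those changed 2-fold. Up to 26 unchanged genes were called in a simulation. The changed genes were drawn at random from expressed genes of the table, so these shares are not those of the members. Over all genes tested the median SE was 0.233. Precision was lowest for the scarcest members, HSPA4L (48 to 163 counts a library, SE 0.50) and HSPB8 (271 to 526 counts, SE 0.32), against a median SE of 0.166 over the members.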

Additional observations from a re-analysis of the deposited data

How the results depend on the processing

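No member was called with TMM, DESeq2 size factors, upper-quartile scaling or library totals alone, without a filter, at 5 CPM in 2 libraries, by DESeq2 or limma-voom, with GC and length offsets, with HSPA1A and HSPA1B summed, or with the replicate block, which moved the count of all called genes to 8, against 3. The replicate numbers gave no pairing from the labels, and same-numbered libraries deviated from their group means at a correlation of 0.031. Called genes numbered 1 with no filter, 6 with the filter of 5 CPM, 22 by DESeq2, 6 by limma-voom and, leaving out 1 library, between 2 and 432, while called members then numbered from 0 to 3. The members' median log2 fold change was from 0.0985 to 0.15 under the other scalings, filters, tools and offsets and from 0.0088 to 0.20 without 1 library.

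Some directions turned. Library totals alone put HSPB1 at 0.008 and CCT8 at 0.022, and GC and length offsets put HSPA13 at -0.059, HSPB1 at 0.135 and CCT4 at -0.041. Leaving out each library kept the sign of 24 members, 19 above and 5 below 0, and turned 15. Ranges were -0.062 to 0.133 for CCT2, -0.100 to 0.129 for CCT4, -0.141 to 0.188 for CCT7, -0.216 to 0.138 for CCT8, -0.171 to 0.022 for DNAJA2, -0.216 to 0.052 for DNAJA3, -0.040 to 0.227 for DNAJB1, -0.018 to 0.214 for FKBP4, -0.232 to 0.105 for HSF2, -0.073 to 0.166 for HSP90AB1, -0.026 to 0.448 for HSPA1B, -0.151 to 0.066 for HSPB1, -0.622 to 0.204 for HSPB8, -0.040 to 0.208 for STIP1 and -0.359 to 0.136 for TRAP1. The cause was not tested. The median was 0.09 over the 30 members that share no exon on their own strand and 0.04 over the 20 that share none on either strand, alternatives chosen after seeing the data, as were the TMM-scaled ranges.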

Other observations

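Chaperone genes typical of other tissues or of strong stress were near the floor of these libraries. HSPA2, a testis-enriched HSP70, had 3 and 6 counts with LGP2 and 7 and 10 counts with vector. HSPA7, a pseudogene related to HSPA6, had 8 and 10 counts with LGP2 and 2 and 3 counts with vector. HSPB6, a small heat shock protein of muscle, had 0 and 4 counts with LGP2 and 14 and 0 counts with vector. These 3 genes did not pass the filter on low counts and were not tested.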
